A study of Mus musculus with 11 samples.

Results

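The genes described here are 5 ligands of the bone morphogenetic protein (BMP) family and its relatives, Bmp2, Bmp4, Bmp7, Gdf3 and Inhba, and 5 antagonists, Nog, Chrd, Fst, Grem1 and Bambi. They were taken by gene symbol from the platform annotation, and all 10 were found, each as 1 transcript cluster (the array's unit for a gene), among 19935 genes tested. Bambi is grouped with the antagonists although its product is a membrane protein that blocks receptors and is not secreted.

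Total RNA from embryonic stem cells (ESCs) of the mouse was measured on 11 one-colour Affymetrix arrays. Mutant cells are labelled Bmpr1a-/-, which means that they lack a type I BMP receptor, and control cells are the wild type E14 line. The groups are mutant cells kept for 3 days in N2B27 (n = 3), control cells kept for 3 days in N2B27 (n = 3), mutant cells in ESC medium (n = 2, numbered 2 and 3) and control cells in ESC medium (n = 3). N2B27 is a serum-free medium used to let ESCs differentiate. The mutant lines were C1-6, Fr124 and Fr88, but the labels assign no array to a line. Nor do they say whether replicate arrays stand for independent cultures, and p-values therefore cover the spread between arrays, which may be technical. Genotype and cell line cannot be told apart.

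BMPs are secreted dimers that bind paired type I and type II receptor kinases, which phosphorylate SMAD1, SMAD5 and SMAD9. Activins and Nodal use related receptors and SMAD2 or SMAD3. Noggin, chordin and gremlin bind BMPs outside the cell and keep them from their receptors, while follistatin binds mainly activin. In mouse ESCs grown with LIF, BMP signalling induces Id genes and holds back neural differentiation.

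Values are log2 values that had been centred on a separate baseline for each gene, so they compare arrays for 1 gene and say nothing of how strongly that gene is expressed or whether it is expressed at all. A gene was called where limma gave a Benjamini-Hochberg adjusted p under 0.05 over all 19935 genes. Bmpr1a itself read 0.15, -0.14 and -0.05 in mutant and 0.61, 0.68 and 0.76 in control arrays in N2B27. In ESC medium it read -0.03 and 0.00 in mutant and 0.37, 0.16 and 0.25 in control arrays, so every mutant array lay below every control array of its medium. The sources used here do not say which exons the mutation removes, and this transcript need not show it. Markers of ESCs averaged -0.346 to -0.282 over 8 genes in mutant and -0.882 to -0.757 in control arrays in N2B27, and 1.54 to 1.59 in mutant and 1.05 to 1.36 in control arrays in ESC medium. All 8 fell in N2B27 in both genotypes. Since the values are centred, the presence of these markers as such cannot be checked. Mutant replicate 2 in N2B27 stood furthest from its group, with a root mean square deviation over all genes of 0.185, against 0.0774 to 0.155 for the other arrays.

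Among the ligands, Bmp4, Bmp7 and Gdf3 varied most between arrays. Their values spanned 2.19, 2.42 and 1.95 log2 units over the 11 arrays, wider than 98.1%, 98.7% and 97.2% of all genes. Bmp2 and Inhba spanned 0.50 and 0.432, close to the median gene's 0.495.

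**Figure D1:**
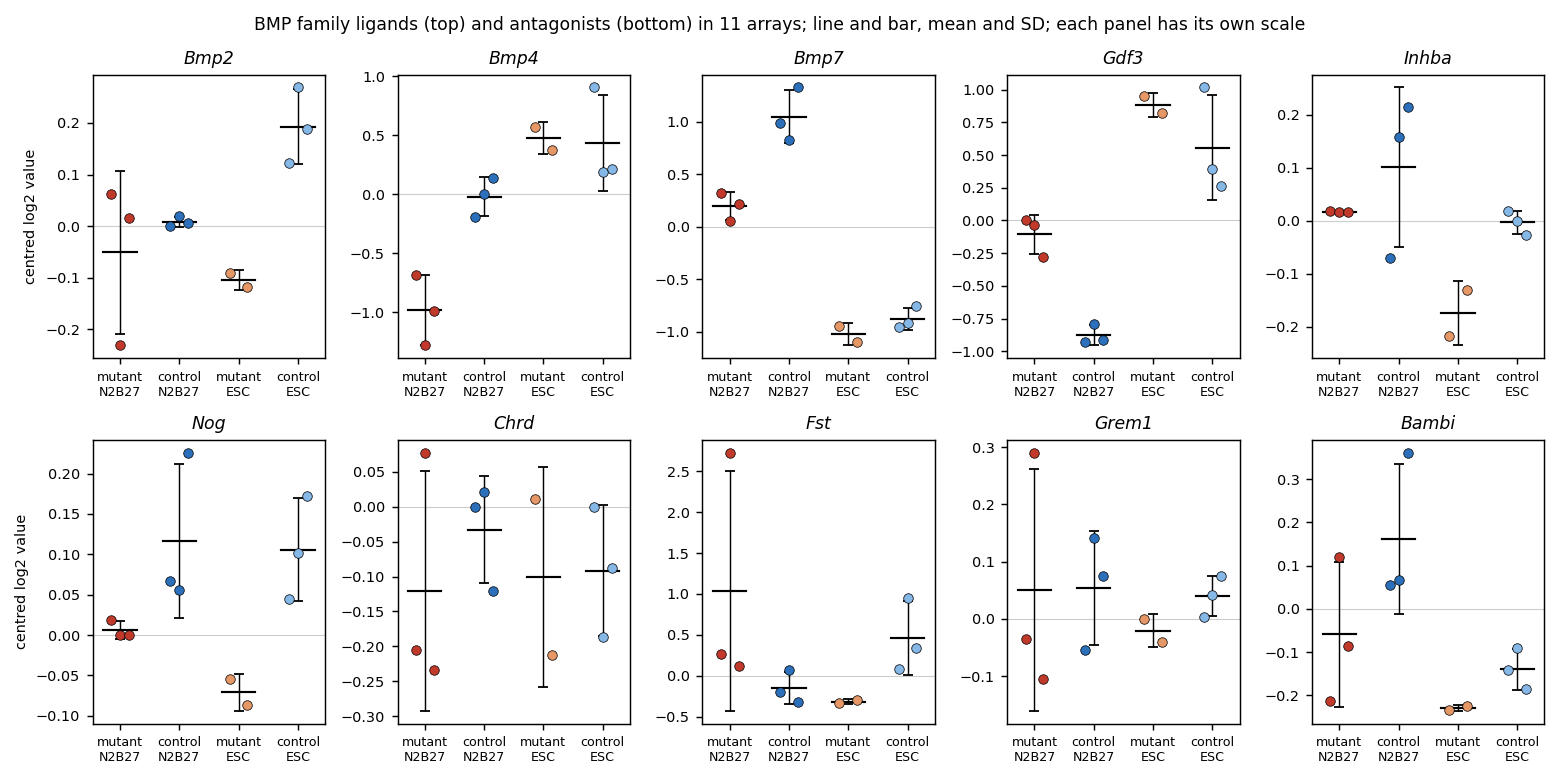
Centred log2 value (y axis, a separate scale in each panel) of the 10 genes in each of the 11 arrays, with points for arrays, lines for group means and bars for the SD. Bmp4, Bmp7 and Gdf3 separate the genotypes in N2B27, and for Fst 1 mutant array in N2B27 stands at 2.73.

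Bmp4 encodes a BMP that ESCs and the early embryo make themselves. In N2B27 it read -0.69, -1.28 and -0.99 in mutant arrays, against -0.20, 0.00 and 0.14 in control arrays. All mutant arrays lay below all control arrays, and the gene fell in mutant cells by 0.97 on the log2 scale, which is 1.95-fold (SE 0.20, adjusted p = 0.0240). In ESC medium it read 0.57 and 0.38 in mutant arrays, against 0.91, 0.18 and 0.21 in control arrays. Here the genotypes overlapped, with a difference of 0.04 (95% interval -0.46 to 0.54, adjusted p = 0.971). N2B27 against ESC medium gave a log2 difference of -1.46 in mutant cells (SE 0.23, adjusted p = 0.00109), which is 2.75-fold. In control cells it gave -0.45 (SE 0.20, adjusted p = 0.139), which was not called and was -0.22 without control replicate 1 in ESC medium. The order of group means was mutant ESC medium, control ESC medium, control N2B27 and mutant N2B27, and of these neighbours the first 2 overlapped. The difference in genotype effect between the media was -1.01 (SE 0.30, adjusted p = 0.146), which was not called. Control replicate 1 in ESC medium held the highest value, and without it that interaction was -1.24 (adjusted p = 0.0234). The call in N2B27 was lost without control replicate 2 or 3 (adjusted p = 0.0739 and 0.0942) or mutant replicate 2 or 3 (0.0529 each), with differences of -0.96 to -0.82.

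Bmp4 lies on chromosome 14, as does Bmpr1a. Over the 699 genes of that chromosome the median genotype difference was -0.0152 in N2B27 and -0.0192 in ESC medium, and 4.58% and 4.15% of them were called. These values cover the whole chromosome, and the regions around Bmpr1a and Bmp4 were not examined apart. Its promoter is shown because Bmp4 had the largest called genotype difference of the 10 genes. The sequence is the 250 bases before the annotated start in RefSeq (GRCm38.p6, chr14:46390670-46390919, minus strand), written 5′ to 3′. Capitals mark E-boxes, the letters CANNTG, a motif bound by proteins of the helix-loop-helix family.
Bmp4 promoter: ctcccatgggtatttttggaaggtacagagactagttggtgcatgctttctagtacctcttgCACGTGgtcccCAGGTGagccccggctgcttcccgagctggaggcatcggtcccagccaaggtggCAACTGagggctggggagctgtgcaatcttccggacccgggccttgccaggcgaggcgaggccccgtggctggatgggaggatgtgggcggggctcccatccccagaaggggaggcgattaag

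The window holds 3 E-boxes, a motif found in 66.2% of 32851 mouse promoter windows of this length, both strands searched. It holds 1 GGGCGG box, found in 32.7% of windows, and neither GGCGCC (9.59%) nor CAGAC (42.2%), which are motifs read by SMADs. Its GC content was 63.2%, above 79.2% of windows. Promoter windows were used for 4 of the 10 genes, and windows on chromosome 18, where Bambi lies, were left out. The windows of Inhba, Chrd and Grem1 held no E-box. GGCGCC stood in those of Chrd and Grem1, at 1 site each. These matches describe letters and were not tested for binding.

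Bmp7 encodes another BMP, which is widely expressed in the embryo and can pair with BMP2 or BMP4. It read 0.32, 0.05 and 0.22 in mutant arrays in N2B27, against 0.99, 0.83 and 1.33 in control arrays. The mutant arrays all lay below the control arrays, and the gene fell in mutant cells by 0.85 on the log2 scale, or 1.80-fold (SE 0.12, adjusted p = 0.00462). In ESC medium the 2 genotypes overlapped, at -0.95 and -1.10 in mutant and -0.95, -0.92 and -0.75 in control arrays, with a difference of -0.15 (95% interval -0.45 to 0.16, adjusted p = 0.714). N2B27 raised Bmp7 by 1.22 in mutant cells (SE 0.14, adjusted p = 0.000194) and by 1.92 in control cells (SE 0.12, adjusted p = 1.28e-05). These are 2.33-fold and 3.79-fold, and the difference between them was -0.70 (SE 0.19, adjusted p = 0.0952), which was not called. All 3 calls of Bmp7 held under each alternative and without any single array of the compared groups, with adjusted p of at most 0.0357. The comparisons of genotype and of medium share arrays, so they are not independent.

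Gdf3 encodes a ligand related to Nodal that is made by pluripotent cells. In N2B27 it read 0.00, -0.04 and -0.28 in mutant arrays, against -0.93, -0.79 and -0.91 in control arrays. Every mutant array was higher, and the gene rose in mutant cells by 0.77, or 1.71-fold (SE 0.17, adjusted p = 0.0266). In ESC medium it read 0.95 and 0.82 in mutant arrays, against 1.02, 0.39 and 0.26 in control arrays, with a difference of 0.33 (95% interval -0.09 to 0.74, adjusted p = 0.438). The overlap came from control replicate 1. Without that array the difference was 0.56 (adjusted p = 0.0141), which was called, and without control replicate 3 it was 0.18 (0.804). N2B27 lowered Gdf3 in both genotypes, with -0.99 in mutant cells (SE 0.19, adjusted p = 0.00327) and -1.44 in control cells (SE 0.17, adjusted p = 0.000241). The interaction of 0.45 was not called (adjusted p = 0.502), and it was 0.22 without control replicate 1 in ESC medium and 0.18 with array weights. The genotype call in N2B27 was lost without control replicate 1, 2 or 3 (adjusted p = 0.075, 0.0631 and 0.0933) or mutant replicate 1 or 2 (0.0696 and 0.0562), with differences of 0.72 to 0.82. Among 8 ESC markers, 3 were called higher in mutant cells in N2B27, against 4.1% of all genes, and none was called lower. The difference was positive for 7 of 8. Nanog went the other way, at -1.42, -0.20 and -0.41 in mutant and -0.91, -0.45 and 0.08 in control arrays. The part of these markers in the Gdf3 result was not tested.

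Bmp2, a close relative of Bmp4 that signals through the same receptors, was not called in any comparison. It read 0.06, -0.23 and 0.02 in mutant and 0.00, 0.02 and 0.01 in control arrays in N2B27. In ESC medium it read -0.09 and -0.12 in mutant and 0.12, 0.27 and 0.19 in control arrays, where the groups did not overlap, at a difference of -0.30 (SE 0.09, adjusted p = 0.0795). With array weights this was -0.33 (adjusted p = 0.00331). Its difference of -0.18 for N2B27 in control cells (adjusted p = 0.117) passed with the 2 groups fitted alone (0.0413) and, at -0.22, with array weights (0.00657).

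Inhba, which encodes the βA subunit of activin A, read 0.02 in all 3 mutant arrays in N2B27, against -0.07, 0.16 and 0.21 in control arrays. In ESC medium the mutant arrays read -0.22 and -0.13, below the control arrays at 0.02, 0.00 and -0.03. Its differences lay between -0.17 and 0.19 in the 4 pairwise comparisons, with adjusted p of 0.124 or more, and none was called. For N2B27 in control cells it was 0.19 without control replicate 1 in N2B27 (adjusted p = 0.0472). For N2B27 in mutant cells it passed with array weights, at 0.19 (adjusted p = 0.0473). Mutant replicate 3 in N2B27 had a weight of 2.93 there, against 0.361 and 0.235 for the other arrays of its group.

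Fst, which encodes the activin-binding protein follistatin, had the widest span of the 10 genes, at 3.06 log2 units. In N2B27 it read 0.27, 2.73 and 0.12 in mutant arrays, against -0.19, 0.07 and -0.32 in control arrays. The groups did not overlap, yet the difference of 1.19 (SE 0.57, adjusted p = 0.292) was not called. Its spread within groups was exceeded by 3 of the 19935 genes. In ESC medium the order was turned, with -0.33 and -0.30 in mutant arrays and 0.08, 0.96 and 0.34 in control arrays, a difference of -0.77 (SE 0.63, adjusted p = 0.648). N2B27 against ESC medium gave 1.35 in mutant cells (SE 0.63, adjusted p = 0.163) and -0.61 in control cells (SE 0.57, adjusted p = 0.541). These SEs use a spread shared by all groups, and the SD was 1.46 in mutant arrays in N2B27, against 0.0255 to 0.45 in the other groups. With the compared groups fitted alone in limma, the genotype difference in ESC medium had SE 0.249 (adjusted p = 0.142). The medium difference in control cells then had SE 0.223 (adjusted p = 0.0897), and neither was called. The interaction was 1.96 (SE 0.85, adjusted p = 0.340).

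The differences that include mutant cells in N2B27 were much smaller without mutant replicate 2. Without it the genotype difference in N2B27 was 0.34 (adjusted p = 0.408), the medium difference in mutant cells 0.51 (0.149) and the interaction 1.11 (0.0932). The medium difference in control cells was -0.36 without control replicate 2 in ESC medium and -0.25 after cyclic loess scaling. That scaling takes the mean value of a gene as its brightness, which centred values do not hold. In mutant replicate 2 in N2B27, 5 of 10 mesoderm markers had their highest value of all 11 arrays. The mean of the list in that array was 0.38, against 0.012 and 0.00578 in the other mutant arrays in N2B27. It was -0.0447 to 0.116 in the remaining groups. Mutant replicate 2 in N2B27 was also highest for 4 of 11 primitive endoderm markers and 4 of 15 fibroblast markers. Its summed value over 11 neural progenitor markers (3.17) was the highest of all arrays, and so was its median over all genes (0.0472). Eomes, a transcription factor gene of early mesoderm and endoderm, read 0.91, 1.35 and 0.00 in mutant arrays in N2B27 and -0.50, -0.23 and -0.25 in control arrays. For Eomes in ESC medium the values were -0.32 and -0.37 in mutant and 0.10, 0.66 and 0.25 in control arrays, where replicate 2 was also the highest for Fst. The part of other cell types, or of the array as a whole, in the values of Fst was not tested, and in bulk RNA fewer cells of a type cannot be told apart from less RNA per cell.

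**Figure D2:**
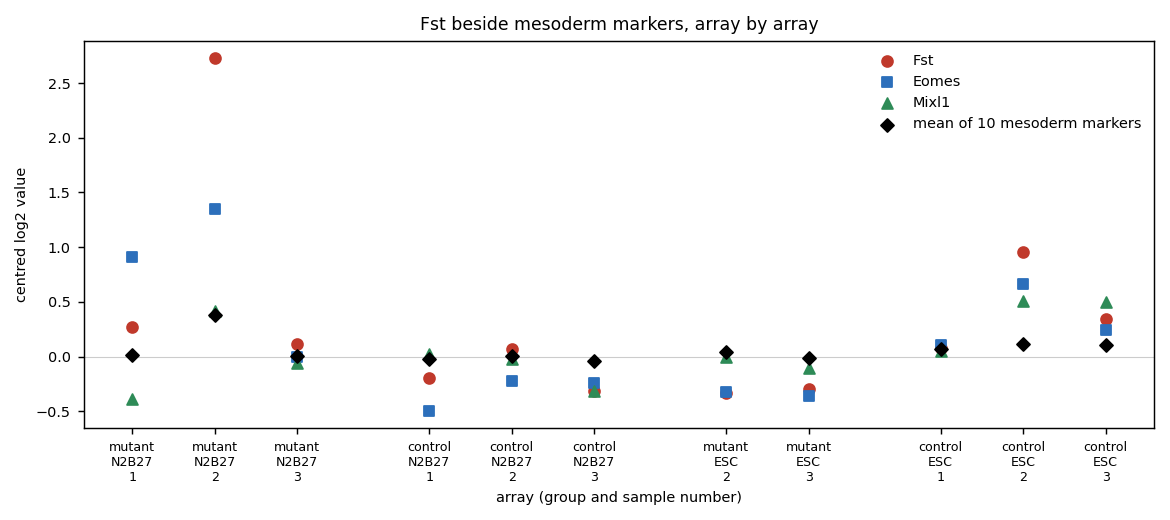
Centred log2 values (y axis) of Fst, Eomes and Mixl1 and the mean of 10 mesoderm markers, for each array on the x axis. Mutant replicate 2 in N2B27 is highest for Fst at 2.73 and for Eomes at 1.35, with a marker mean of 0.38.

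Bambi encodes a decoy receptor without a kinase domain, itself induced by BMP signalling. In N2B27 it read -0.21, 0.12 and -0.08 in mutant arrays, against 0.06, 0.07 and 0.36 in control arrays, with overlap and a difference of -0.22 (SE 0.10, adjusted p = 0.263). The values in ESC medium were -0.23 and -0.22 in mutant and -0.14, -0.09 and -0.19 in control arrays, at -0.09 (adjusted p = 0.811). N2B27 raised it in control cells by 0.30, or 1.23-fold (SE 0.10, adjusted p = 0.0495). In mutant cells the difference was 0.17 (adjusted p = 0.342). The call in control cells stood at the threshold and was lost without any 1 of the 6 arrays (adjusted p = 0.052 to 0.173) and when clusters were tested without averaging (0.0504). It was kept in the other settings that used all arrays of the compared groups, with adjusted p of 0.00847 to 0.0468.

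Nog, Chrd and Grem1, which encode the secreted BMP antagonists noggin, chordin and gremlin 1, were called in no comparison, with adjusted p of 0.2 or more. Nog read 0.02, 0.00 and 0.00 in mutant and 0.07, 0.06 and 0.23 in control arrays in N2B27, and -0.06 and -0.09 in mutant and 0.04, 0.10 and 0.17 in control arrays in ESC medium. The mutant arrays were below the control arrays in both media, at differences of -0.11 (95% interval -0.25 to 0.03) and -0.18 (95% interval -0.33 to -0.02). Chrd read between -0.23 and 0.08 in all 11 arrays, and every pair of its groups that was compared overlapped. Grem1 read 0.29 in mutant replicate 2 in N2B27 and between -0.10 and 0.14 in the other 10 arrays. The 95% intervals of Chrd and Grem1 in the 4 pairwise comparisons ran from -0.30 to 0.31 at their widest. Because brightness was lost in the centring, these narrow ranges do not show whether the genes were expressed.

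**Figure D3:**
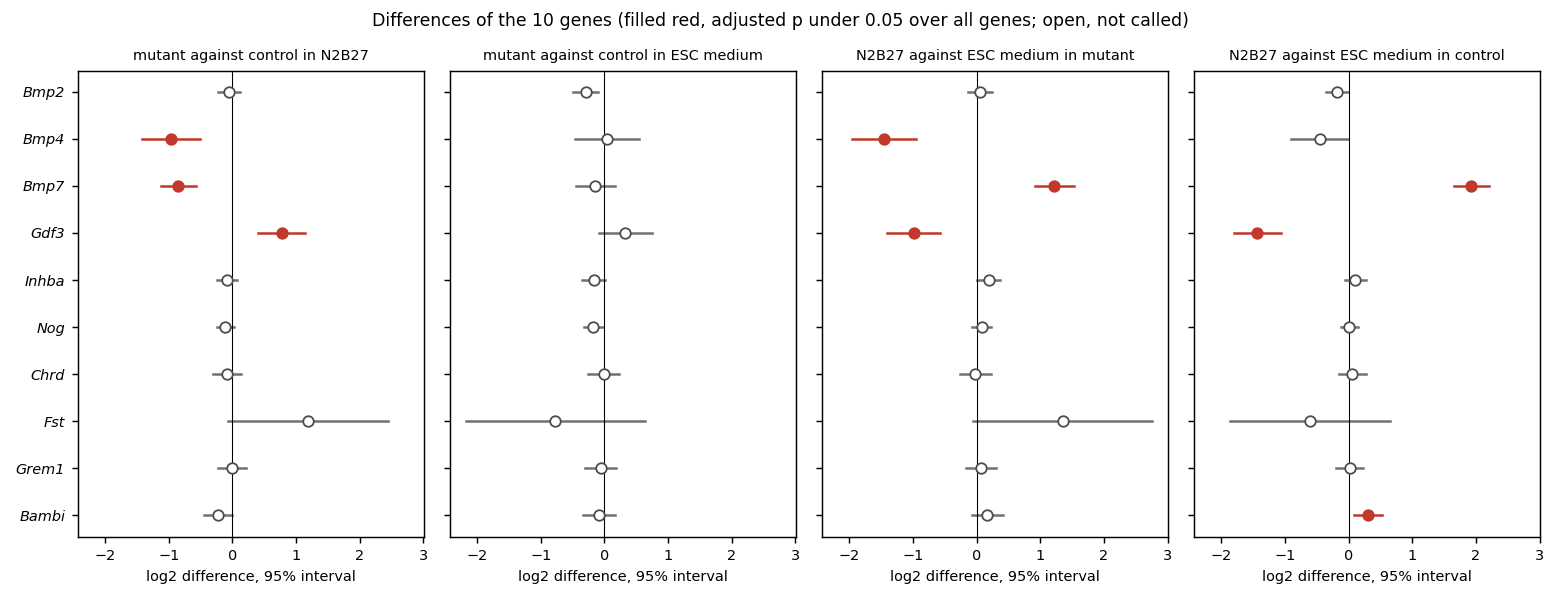
Log2 difference (x axis) with its 95% interval for the 10 genes in the 4 pairwise comparisons, filled red where called. Bmp4, Bmp7 and Gdf3 are called between genotypes in N2B27 and none is in ESC medium, while the intervals of Fst are the widest.

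Counted together, 3 of the 10 genes were called between genotypes in N2B27 (1 higher and 2 lower in mutant cells). Of all genes 5.74% were called there, 4.1% higher and 1.64% lower. None of the 10 was called in ESC medium with limma, where 6.14% of all genes were, while Bmp2 and Nog had an unadjusted p under 0.05, as did 17.8% of all genes. N2B27 against ESC medium called 3 of 10 in mutant cells (1 higher, 2 lower), against 25.2% of all genes (14.9% higher, 10.3% lower). In control cells it called 3 of 10 (2 higher, 1 lower), against 26.1% of all genes (12.8% higher, 13.3% lower). Both shares for medium are near that of all genes. In the interaction 0 of 10 were called with limma, against 2.12% of all genes, and Bmp4, Bmp7 and Fst had an unadjusted p under 0.05, as did 13.7% of all genes. With array weights 3 were called in the interaction, against 8.94% of all genes, and 2 between genotypes in ESC medium, against 15.7%, a share near that of all genes. The weights of mutant replicates 1, 2 and 3 in N2B27 were 0.361, 0.235 and 2.93, so the weighted interaction rests mainly on replicate 3 for that group. Median differences of the 10 genes were -0.0856 in N2B27 and -0.118 in ESC medium between genotypes, and 0.074 in mutant and 0.0125 in control cells between media. Over all genes these medians lay between -0.0085 and 0.0176. Groups did not overlap for 5 of the 10 genes between genotypes in N2B27 and for 6 in ESC medium, against 20.2% and 39.4% of all genes. Between media they did not overlap for 7 in mutant and 6 in control cells, against 43.5% and 43.9% of all genes.

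Genes with the most similar pattern to each called member were sought among 17160 named genes, by the root mean square difference over the 11 arrays after each gene was centred on its own mean. For Bmp7, whose own values had a root mean square of 0.849, the nearest were Maml3 at 0.142, Tgfbr3 at 0.167 and Rgl3 at 0.198. For Gdf3 (0.689) they were Crtap at 0.123, Smarcad1 at 0.137 and the hedgehog effector Gli1 at 0.149. Bmp4 (0.637) had more distant neighbours, Bcap29 at 0.254, Gli2 at 0.314 and Hap1 at 0.324. For Bambi (0.177) they were Cdk7, P3h3 and Ldb2, at 0.0655 to 0.0754. Tgfbr3, which encodes the co-receptor betaglycan, differed between genotypes in N2B27 by -0.90 (SE 0.13, adjusted p = 0.00471), beside -0.85 for Bmp7. As Tgfbr3 was picked for its likeness to Bmp7 over these same arrays, the nearness of these values is no separate result.

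Of 24 other ligands of the superfamily measured, 1 was higher and 1 lower in mutant cells in N2B27, and 0 and 2 in ESC medium, which is close to the shares of all genes (5.74% and 6.14%). Tgfb1, which encodes a transforming growth factor, rose by 0.42 in mutant cells in N2B27 (SE 0.07, adjusted p = 0.0101). In ESC medium Bmp8b, a BMP gene best known from the germ line and brown fat, fell by 1.32 (SE 0.14, adjusted p = 0.000710), and Tgfb2 fell by 1.24 (SE 0.14, adjusted p = 0.000892). Their difference between the media was called, with interactions of 1.32 for Bmp8b and 1.61 for Tgfb2 (adjusted p = 0.00904 and 0.00363), the first not without mutant replicate 2 in ESC medium (0.0631). N2B27 against ESC medium gave 1 higher and 2 lower in mutant cells, against 14.9% and 10.3% of all genes. In control cells it gave 2 higher and 5 lower, against 12.8% and 13.3% of all genes. Nodal, a ligand of the Activin branch, fell by 2.01 in control cells (SE 0.41, adjusted p = 0.00532). In mutant cells it was not called but had an unadjusted limma p under 0.05, and its interaction was not called.

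Of 20 other antagonists and modulators measured, none was called between genotypes in N2B27 with limma, against 5.74% of all genes. An unadjusted p under 0.05 was found there for 3, and for 19.3% of all genes. In ESC medium 2 were called, both lower in mutant cells, against 6.14% of all genes called in either direction. These were Fstl1, a follistatin-like gene, at -1.24 (SE 0.12, adjusted p = 0.000631), and Crim1, which encodes a membrane protein that binds BMPs, at -1.14 (SE 0.16, adjusted p = 0.00346). Between media, 3 rose and 3 fell in mutant cells, and 2 rose and 3 fell in control cells. The shares of all genes were 14.9% and 10.3% in mutant cells, and 12.8% and 13.3% in control cells. Lefty2, an inhibitor of Nodal, fell by 3.42 in mutant cells (SE 0.30, adjusted p = 5.39e-05) and by 2.63 in control cells (SE 0.27, adjusted p = 0.000135).

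Among 12 processing enzymes and co-receptors, mutant cells had 2 higher and 2 lower in N2B27 and 2 lower in ESC medium. Calls in either direction took in 5.74% of all genes in N2B27 and 6.14% in ESC medium. Eng, the co-receptor endoglin, rose by 1.18 in N2B27 (SE 0.18, adjusted p = 0.00544). Bmp1, which encodes a protease that cleaves chordin and is no BMP ligand, fell by 1.56 in mutant cells in ESC medium (SE 0.09, adjusted p = 1.83e-05). Its interaction was 1.62 (SE 0.12, adjusted p = 0.000434), and N2B27 raised it by 0.76 in mutant cells and lowered it by 0.85 in control cells. Of the 12, 6 rose and 2 fell in N2B27 in mutant cells, and 5 rose and 4 fell in control cells. For all genes these shares were 14.9% and 10.3% in mutant cells, and 12.8% and 13.3% in control cells. Tdgf1, the Nodal co-receptor Cripto, fell by 3.77 in control cells (SE 0.60, adjusted p = 0.00129). It was also called lower in mutant cells, and its interaction was not called.

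Of 17 receptor and SMAD genes, 2 fell in mutant cells in N2B27, Bmpr1a at -0.70 (SE 0.09, adjusted p = 0.00211) and Acvr1, another type I receptor gene, at -0.33 (SE 0.05, adjusted p = 0.00766). In ESC medium Acvr1 fell by 0.45 (SE 0.06, adjusted p = 0.00213), one of 2 called, while Bmpr1a was not called. Calls between genotypes took in 5.74% of all genes in N2B27 and 6.14% in ESC medium. In N2B27 against ESC medium 9 rose in mutant and 7 in control cells and none fell. By comparison, 14.9% and 12.8% of all genes rose, and 10.3% and 13.3% fell. Smad3, a SMAD of the activin branch, rose by 1.16 in mutant and 1.35 in control cells (adjusted p = 0.000165 and 5.03e-05) and, in the same order of genotypes, Acvr2b, a type II receptor gene, by 1.05 and 0.97 (adjusted p = 8.51e-05 and 7.57e-05).

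Of 6 feedback targets of BMP signalling, none was called between genotypes in N2B27 with limma, against 5.74% of all genes. An unadjusted p under 0.05 was found there for 0 of the 6, against 19.3% of all genes. The differences of Id1, Id2 and Id3, which encode helix-loop-helix inhibitors, lay between -0.27 and -0.03 there. Under ESC medium conditions the fall of Id2 in mutant cells was -1.81 (SE 0.28, adjusted p = 0.00514). For Id3 it was -0.78 (SE 0.20, adjusted p = 0.0495), while Id1 at -0.53 was not called (adjusted p = 0.0502). With mutant replicate 2 or 3 left out, Id2 no longer passed (adjusted p = 0.0528 and 0.0507), and Id3 failed whichever of the 5 arrays was left out (0.0721 to 0.36). N2B27 lowered 3 of the 6 in mutant and 4 in control cells, against 10.3% and 13.3% of all genes. Id1 fell by 1.25 in mutant cells (SE 0.14, adjusted p = 0.000163) and by 1.51 in control cells (SE 0.12, adjusted p = 4.12e-05). After cyclic loess scaling the value in mutant cells was -0.39 (adjusted p = 0.176), which was not called. Because that scaling needs brightness, which centred values do not hold, it cannot decide whether the call is stable.

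**Figure D4:**
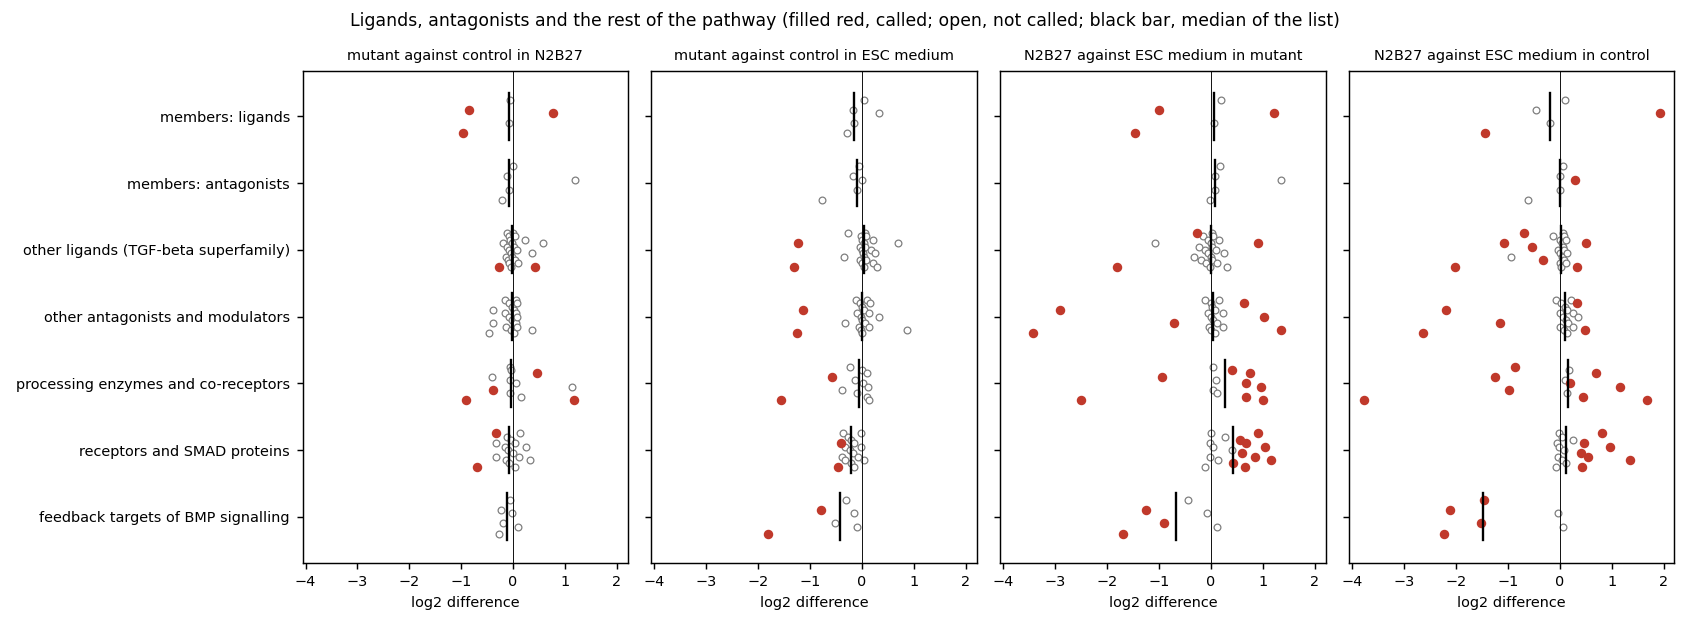
Log2 difference (x axis) of each measured gene of the ligand, antagonist and other pathway lists in the 4 pairwise comparisons, filled red where called, with a bar at the median of a list. Receptor and SMAD genes that were called between media all lie above 0, and called feedback targets all lie below 0.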

How the data were processed

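Log2 expression values per transcript cluster had been deposited by the authors for 11 arrays. Per the submitters' processing notes, they come from RMA, run in Affymetrix Expression Console 1.2. Base 2 is taken from the usual output of RMA. Values are centred per cluster, with 55.8% of clusters at exactly 0 on some array, and how is not stated. The genome build was not given in the sources used here. Depth has no meaning for arrays, and their number limits precision.

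Of 28815 clusters, 21780 had 1 gene symbol, 1605 several and 5430 none. Clusters with 1 symbol were averaged per gene, giving 19935 genes. One limma 3.58.1 model (R 4.3.3) with the 4 groups gave each comparison and the interaction, with Benjamini-Hochberg adjustment over all genes and intervals at 95%. The code was tested on simulated data. Members and lists were chosen with earlier results of these data known. Named were all members, Bmpr1a, Id1 to Id3, the nearest patterns and the called genes of each list with large differences.

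Array numbers come from the sample titles. Deviations of arrays with the same number correlated at 0.256, 0.43 and 0.158 between genotypes in N2B27 and at 0.138, 0.181 and 0.131 between media in control cells, so the numbers were taken to pair these arrays. The model has no replicate term, so its SEs and p-values treat arrays as unpaired, and the pairing enters as an alternative. With mutant ESC medium only 2 pairs exist (0.0365 and 0.284 for genotype, 0.215 and 0.266 for medium). Alternatives were the compared groups alone, a replicate block, median and cyclic loess scaling, array weights, single clusters and leaving out each array. For a pairwise comparison only arrays of its own groups were left out, and for the interaction any array. Mutant replicate 1 in ESC medium is not analysed here.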

Additional observations from a re-analysis of the deposited data

Results flagged for a closer look

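For Fst every mutant array lay below every control array in ESC medium (-0.774, adjusted p = 0.648) and above it in N2B27 (1.19, adjusted p = 0.292), and neither difference was called. Likewise every N2B27 array lay above every ESC medium array in mutant cells (1.35, adjusted p = 0.163) and below it in control cells (-0.607, adjusted p = 0.541), again without a call. The test of this difference, the interaction of 1.96 (SE 0.85, adjusted p = 0.340), did not pass either. Without mutant replicate 2 in N2B27, 1.19 became 0.34, 1.35 became 0.51 and 1.96 became 1.11. These comparisons share arrays. With the compared groups fitted alone in limma, adjusted p was 0.142 between genotypes in ESC medium and 0.0897 between media in control cells, again without a call. The gap between the nearest arrays of the genotypes was 0.375 in ESC medium and 0.0506 in N2B27. Between media it was 0.412 in mutant and 0.0128 in control cells. Among all genes, 39.4% did not overlap between genotypes in ESC medium and 20.2% in N2B27. Between media these shares were 43.5% in mutant and 43.9% in control cells.

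In 7 other genes of the pathway the genotype effect differed between media by the limma interaction test, which called 2.12% of all genes. The interaction was 1.62 for Bmp1, 1.61 for Tgfb2 and 1.32 for Bmp8b. It was 1.79 for Id2, 0.852 for Fstl1, -0.491 for Rgma and -0.359 for Bmp15. Bmp8b was lost without mutant replicate 2 in ESC medium (adjusted p = 0.0631). Id2, Fstl1, Rgma and Bmp15 were each lost without some single arrays and after cyclic loess scaling. The loess result carries little weight, since that scaling needs brightness, which centred values do not hold.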

How the results depend on the processing

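The number of the 10 genes called between genotypes in N2B27 was 3 in every setting that kept all arrays, and 1 to 2 without single arrays. In ESC medium it was 0, but 2 with array weights and 0 to 1 without single arrays. The interaction gave 0, but 3 with array weights (Bmp2, Bmp4 and Bmp7) and 0 to 1 without single arrays. The medium counts of 3 ranged from 2 to 4. With the replicate block the counts were 3 in N2B27, 0 in ESC medium, 3 for each medium comparison and 0 for the interaction, so the pairing changed no call of these genes; of the named pathway genes it ended the interaction of Bmp15 (-0.354, adjusted p = 0.0733). Over all genes, calls between genotypes in N2B27 numbered 1144, against 397 with the compared groups alone and 2882 with array weights. In ESC medium they numbered 1224, against 3138 with array weights. The interaction gave 422, against 1782 with array weights, 657 with the block and 273 after cyclic loess. Calls for medium in mutant cells numbered 5018, against 7689 with array weights. Without single arrays the counts over all genes ran from 454 to 1204 between genotypes in N2B27, from 304 to 1428 in ESC medium, from 2720 to 5956 for medium in mutant cells, from 3987 to 4509 in control cells and from 59 to 633 for the interaction. The lowest counts in ESC medium, for medium in mutant cells and for the interaction were those without mutant replicate 2 in ESC medium, and the lowest in N2B27 was that without control replicate 3.

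Signs turned in values that were not called. After cyclic loess Chrd was 0.0736 between genotypes in ESC medium, Grem1 0.0175 between genotypes in N2B27, and Nog and Grem1 -0.037 and -0.0247 for medium in control cells. With array weights Chrd was 0.0331 in ESC medium, and Grem1 -0.0511 for medium in mutant cells and -0.0827 in the interaction. Leaving out single arrays gave ranges that crossed 0 for 11 such values. Between genotypes in ESC medium they were -0.0838 to 0.277 for Bmp4 and -0.121 to 0.102 for Chrd. In N2B27 they were -0.116 to 0.0308 for Bmp2 and -0.124 to 0.0736 for Grem1. For medium in mutant cells they were -0.0031 to 0.144 for Bmp2, -0.131 to 0.0921 for Chrd and -0.0495 to 0.148 for Grem1. In control cells they were -0.0442 to 0.0436 for Nog and -0.0294 to 0.0684 for Grem1. In the interaction they were -0.189 to 0.0337 for Chrd and -0.0638 to 0.134 for Grem1. Among called pathway genes, cyclic loess turned Smoc1 to 0.161 and Id3 to 0.372 for medium in mutant cells; the cause was not tested. This scaling takes the mean value as brightness, which centred values do not hold. Centring also hides whether a probe was above background, and 2 to 3 arrays a group limit what could be called.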
